A study of Mus musculus with 6 samples.

Results

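Thyroid hormone acts in the cortex through a short chain of proteins, and 7 genes along that chain were followed here by their symbols: Dio2 (conversion), Slco1c1 (entry), Crym (binding in the cytosol), Thra and Thrb (receptors), Hr (corepressor and target) and Klf9 (target). They are 7 of the 54429 gene names in the count files, and all 7 passed the filter on low counts, as did 20409 genes in all. The 7 were selected on their read counts and differences between the groups in these same libraries, which were known when they were named, so their values are a description and are given with no test. RNA was measured in bulk prefrontal cortex (PFC) of 6-month-old mice in 6 libraries, 2 biological replicates per group. WT mice of a C57BL/6 x C3H background received vehicle, saline with a little DMSO. P301S Tau mice (PS19) carry a human 1N4R tau transgene with the P301S mutation, driven by the mouse prion protein promoter, and received the same vehicle. The last group was P301S Tau mice given UNC0642, an inhibitor of the histone methyltransferases EHMT1 and EHMT2, at 1 mg/kg by intraperitoneal injection once daily for 3 days. By the study's methods, tissue was taken 24 h after the last injection, and males and females were both used.

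The thyroid gland releases mostly the prohormone T4. In the brain, T4 crosses the blood-brain barrier through transporters such as the one encoded by Slco1c1 (OATP1C1), is turned into the active hormone T3 by the type 2 deiodinase encoded by Dio2, mainly in astrocytes, and T3 then binds the nuclear receptors TRα and TRβ in neurons and glia. These receptors sit on DNA with RXR partners, hold corepressors when empty and exchange them for coactivators when T3 is bound. Klf9 and Hr are textbook genes raised by T3 in the rodent brain, and Klf9 is also raised by glucocorticoids.

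Total counts ran from 17005664 to 28972176 per library. Prnp, whose promoter drives the transgene, was at 1652 CPM (counts scaled to library size with TMM factors) in the library labelled WT replicate 1 and at 873 CPM in WT replicate 2, against 1470 to 1694 CPM in the 4 P301S libraries, so the library labelled WT replicate 1 went against its label. Mapt showed the same order, with 576 CPM in the library labelled WT replicate 1, 449 CPM in WT replicate 2 and 571 to 614 CPM in the P301S libraries. Xist, made from the inactive X chromosome, had 4104 to 8107 counts in WT replicate 2 and both Tau libraries and 2 to 5 counts in the library labelled WT replicate 1 and both UNC0642-treated Tau libraries, and the Y-linked Ddx3y showed the reverse. The comparison of UNC0642-treated Tau with Tau therefore coincides with this split, and drug and sex pattern cannot be told apart in it. Tau replicate 2 held more oligodendrocyte and striatal neuron RNA than the other libraries (summed CPM of 12 and 10 marker genes, 5943 against 1580 to 3175 and 400.1 against 178 to 216). For many calls that depended on 1 of these libraries, the value without it is given or the loss is stated, but not every such loss is listed.

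Dio2 encodes the enzyme that makes T3 from T4 inside the brain. Its gene lies at chr12:90724552-90738438 on the minus strand (GRCm38) and is protein-coding. Type 2 deiodinase is a selenoprotein, so a stop codon, TGA, is read as selenocysteine at the active site. The stretch below shows codons 121 to 139 of the GENCODE M21 coding sequence of Dio2 (chr12:90729796-90729852, minus strand, exonic and coding), with that TGA, codon 130, in capitals. The annotation marks a further TGA, codon 263, as selenocysteine. The other stretch is the 250 bases before the RefSeq start site (GRCm38.p6, chr12:90739039-90739288, minus strand, 600 bases upstream of the GENCODE gene start), shown because Dio2 differed between all groups. Its capitals mark TGACGTCA, the full cAMP response element, 95 to 88 bases before the start, and TATAAA, 30 to 25 bases before it.
Dio2 selenocysteine codon: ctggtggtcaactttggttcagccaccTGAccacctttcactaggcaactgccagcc
Dio2 upstream window: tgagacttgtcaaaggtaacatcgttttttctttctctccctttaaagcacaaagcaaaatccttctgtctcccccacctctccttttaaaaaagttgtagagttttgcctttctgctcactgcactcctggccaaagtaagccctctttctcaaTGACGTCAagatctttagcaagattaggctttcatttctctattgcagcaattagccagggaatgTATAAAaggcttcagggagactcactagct
TGACGTCA, on either strand, was in 1.55% of the 32851 mouse promoter windows of this length, and TATAAA, on the forward strand, in 7.59%. A match of letters is a description of the window, not a measured site.

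Dio2 stepped up from WT to Tau and again to UNC0642-treated Tau. It was at 125 CPM in the library labelled WT replicate 1 and 137 CPM in WT replicate 2, at 155 and 151 CPM in the Tau libraries, and at 204 and 211 CPM in the UNC0642-treated Tau libraries. No library of any group overlapped the next group. Of all genes tested, 21.9% were likewise higher in Tau than in WT without overlap, and 20.4% in UNC0642-treated Tau than in Tau. Group means were 131 ± 7.85 CPM in WT, 153 ± 2.25 CPM in Tau and 207 ± 4.75 CPM in UNC0642-treated Tau (SD, n = 2). On the log2 scale, with standard errors (SE) from the edgeR fit, Dio2 was 0.22 (SE 0.076) higher in Tau than in WT. That is 1.17-fold, short of the 1.2-fold of the study's threshold. It was 0.44 (SE 0.076) higher in UNC0642-treated Tau than in Tau, 1.35-fold, and 0.66 (SE 0.076) higher than in WT, 1.58-fold. The comparisons share libraries and are not independent of each other. Without the library labelled WT replicate 1, all remaining WT and Tau libraries show the Xist pattern, and the difference between Tau and WT was 0.16 (SE 0.085). Without WT replicate 2, WT is only the library labelled WT replicate 1, whose Prnp and Mapt went against its label. The remaining WT and UNC0642-treated libraries then show the Ddx3y pattern, and Dio2 was 0.72 (SE 0.087) higher in UNC0642-treated Tau than in WT. With each library left out in turn, the difference between UNC0642-treated Tau and Tau ran from 0.41 to 0.46.

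Astrocyte marker RNA is set beside Dio2 here. The 13 astrocyte marker genes summed to 5118 and 5612 CPM in WT, 5406 and 5422 CPM in Tau, and 5593 and 5797 CPM in UNC0642-treated Tau, and none of the 13 was at 0. More of that sum came from Slc1a2 (3047 to 3605 CPM) than from the other 12 genes together, and the median log2 difference of the 13 between UNC0642-treated Tau and Tau was -0.09. Of these 13, Gfap and Gjb6 passed the study's threshold as higher in Tau than in WT, beside 3.72% of all genes tested. None of them passed between UNC0642-treated Tau and Tau, beside 7.69% of all genes in either direction. Gfap was not called without WT replicate 2 or without Tau replicate 2, nor was Gjb6 without the library labelled WT replicate 1. Per 1000 astrocyte marker CPM, the WT libraries had 24.5 and 24.3 Dio2 CPM, the Tau libraries 28.6 and 27.9, and those of UNC0642-treated Tau 36.5 and 36.3, and the groups did not overlap. The part of astrocyte number in the Dio2 values was not tested. In bulk tissue, fewer cells of a type and less RNA per cell cannot be told apart. A long noncoding RNA gene, Gm26512, overlaps 100 exon bases of Dio2 (1.72% of its exons) on the opposite strand, and it was at 1.79 to 2.88 CPM in the 6 libraries, far below Dio2.

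**Figure D1:**
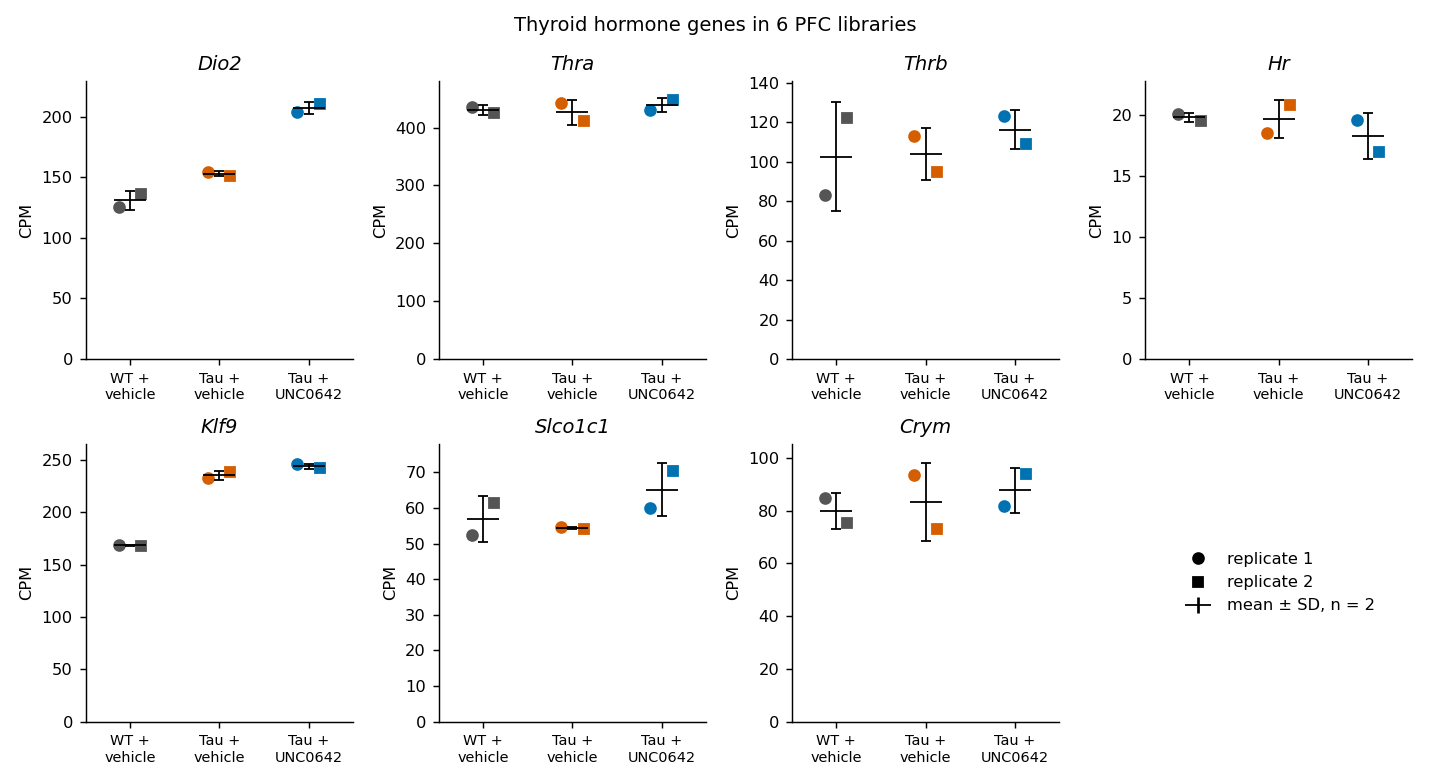
CPM of the 7 thyroid hormone genes in each library (circles, replicate 1; squares, replicate 2), with the group mean and SD (n = 2) as bars; every y axis starts at 0. Dio2 steps up over the 3 groups, from 125 to 211 CPM, Klf9 is at 168 to 169 CPM in WT and 232 to 246 CPM in the P301S libraries, and the other 5 genes have overlapping groups except Slco1c1 between Tau and UNC0642-treated Tau.

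Slco1c1 encodes the T4 transporter of brain capillary endothelial cells, also made in astrocytes. The gene lies at chr6:141524368-141570177 on the plus strand. It was at 52.4 CPM in the library labelled WT replicate 1 and 61.5 CPM in WT replicate 2, at 54.6 and 54.2 CPM in Tau, and at 60.0 and 70.4 CPM in UNC0642-treated Tau. Both UNC0642-treated libraries lay above both Tau libraries, while WT overlapped each of the other groups. The means were 57.0 ± 6.45, 54.4 ± 0.291 and 65.2 ± 7.34 CPM (SD, n = 2). The log2 difference was -0.07 (SE 0.109) between Tau and WT, 0.26 (SE 0.110) between UNC0642-treated Tau and Tau, and 0.20 (SE 0.109) between UNC0642-treated Tau and WT. Left-out libraries moved the middle value from 0.14 to 0.37, so 1 library decides its size: it was lowest without UNC0642-treated Tau replicate 2, which held the highest level. The 12 endothelial marker genes summed to 263 and 257 CPM in WT, 226 and 232 CPM in Tau, and 215 and 267 CPM in UNC0642-treated Tau, with none at 0. Their part in the Slco1c1 values was not tested. Per 1000 endothelial marker CPM, the WT libraries had 199 and 239 Slco1c1 CPM, the Tau libraries 242 and 234, and those of UNC0642-treated Tau 280 and 263, and per 1000 astrocyte marker CPM it stayed between 10.001 and 12.1 in all 6 libraries.

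Crym encodes μ-crystallin, a cytosolic protein that binds T3, and it is strong in deep-layer cortical neurons and in striatum. The gene lies at chr7:120186380-120202111 on the minus strand. It was at 84.8 and 75.2 CPM in WT, 93.7 and 72.9 CPM in Tau, and 81.8 and 93.7 CPM in UNC0642-treated Tau. All groups overlapped, and the replicates of Tau differed from each other by more than any pair of group means. The log2 difference was 0.06 (SE 0.125) between Tau and WT, with a 95% interval of -0.215 to 0.338, and 0.07 (SE 0.125) between UNC0642-treated Tau and Tau, with an interval of -0.205 to 0.351. Tau replicate 2, the library with most striatal neuron marker RNA, had the lowest Crym of the 6.

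Thra and Thrb encode the nuclear T3 receptors. Thra lies at chr11:98740638-98769006 and Thrb at chr14:17660261-18038090, both on the plus strand. Because the counts come from alignment to transcripts, related genes could in principle trade reads. The lines below show the coding bases around the P box, the short helix of the first zinc finger that reads the DNA element, with capitals at the 11 of 60 bases that differ. They are codons 63 to 82 of Thra (chr11, between 98756988 and 98760899) and codons 131 to 150 of Thrb (chr14, between 18002593 and 18008592), each interrupted by an intron in the genome (GRCm38, GENCODE M21).
Thra P-box stretch: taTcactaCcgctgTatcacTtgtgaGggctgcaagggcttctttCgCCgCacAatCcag
Thrb P-box stretch: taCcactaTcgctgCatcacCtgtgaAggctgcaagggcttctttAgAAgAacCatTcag
Over their whole annotated transcripts the receptors shared 0 words of 50 bases with each other, and 9 of the 7385 words of Thrb, 0.122%, also occurred in other genes. Nearly all words of this length in either transcript thus belong to 1 receptor gene.

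Thra was nearly level across the libraries. It was at 436 and 425 CPM in WT, 442 and 411 CPM in Tau, and 430.5 and 447 CPM in UNC0642-treated Tau, and all groups overlapped. The log2 difference was -0.01 (SE 0.073) between Tau and WT, with a 95% interval of -0.176 to 0.148. For UNC0642-treated Tau against Tau it was 0.04, with an interval of -0.120 to 0.205. The last exons of Thra overlap Nr1d1, a repressor of the circadian clock, on the opposite strand over 263 exon bases (5.70% of the Thra exons), and the strand setting of the counting is not given in the sources used here. Nr1d1 was at 38.3 and 44.1 CPM in WT, 46.3 and 36.1 CPM in Tau, and 24.3 and 23.1 CPM in UNC0642-treated Tau. It fell by 0.80 (SE 0.135) on the log2 scale between UNC0642-treated Tau and Tau (edgeR, adjusted p = 0.144), while Thra stayed level in the same libraries. Nr1d1 was far below Thra in CPM, so this contrast cannot show whether its reads entered the Thra counts, which was not tested.

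Thrb, in WT, had the widest spread between replicates of the 7 genes. It was at 83.0 CPM in the library labelled WT replicate 1 and 122 CPM in WT replicate 2, at 113 and 94.5 CPM in Tau, and at 123 and 109 CPM in UNC0642-treated Tau. The WT replicates spanned nearly the whole range of the 6 libraries, so every comparison with WT depends on which WT library is used. The log2 difference between Tau and WT was 0.02 (SE 0.159) with all libraries, -0.24 without the library labelled WT replicate 1 and 0.33 without WT replicate 2. In UNC0642-treated Tau against Tau it was 0.16 (SE 0.159) with a 95% interval of -0.194 to 0.513. With the log2 level of Xist added to the fit as a term it was 0.68 (SE 0.179). That term rests mostly on the gap between the WT libraries, because only WT holds both the Xist and the Ddx3y pattern. The value with the term therefore cannot separate drug from sex pattern. Against WT, the UNC0642-treated libraries differed by 0.18 (SE 0.159), by -0.08 (SE 0.121) without the library labelled WT replicate 1, and by 0.48 (SE 0.126) without WT replicate 2. In that last case the 3 remaining libraries all show the Ddx3y pattern, and WT is only the library labelled WT replicate 1, which went against its label.

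Hr encodes a corepressor that binds empty thyroid hormone receptors and is itself a classic T3-raised gene of the brain. It lies at chr14:70552212-70573548 on the plus strand and was the lowest of the 7, with 331 to 519 counts per library. It was at 20.1 and 19.5 CPM in WT, 18.6 and 20.8 CPM in Tau, and 19.6 and 16.9 CPM in UNC0642-treated Tau. The groups overlapped in every comparison. The log2 difference was -0.01 (SE 0.125) between Tau and WT, with a 95% interval of -0.290 to 0.266, and -0.11 (SE 0.127) between UNC0642-treated Tau and Tau, with an interval of -0.388 to 0.176.

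Klf9 encodes a Krüppel-like transcription repressor. It was higher in both P301S groups than in WT, and nearly the same in the P301S groups whether UNC0642 was given or not. The gene lies at chr19:23141226-23168134 on the plus strand. The 250 bases before its RefSeq start (GRCm38.p6, chr19:23140976-23141225, plus strand) are shown because Klf9 separated WT from the P301S libraries. None of 7 motifs searched was in this window, which says only that these letters are not there. The motifs, each with the share of the 32851 windows that hold it, were TGACGTCA (1.55%), the nuclear receptor hexamer AGGTCA (14%), the direct repeat of that hexamer with a gap of 4 bases (0.0152%), CACGTG (6.02%), GGGCGG (32.7%) and the palindromic glucocorticoid response element (0.00913%), all on both strands, and TATAAA (7.59%) on the forward strand, where every match of the direct repeat also counts as a match of the hexamer.
Klf9 upstream window: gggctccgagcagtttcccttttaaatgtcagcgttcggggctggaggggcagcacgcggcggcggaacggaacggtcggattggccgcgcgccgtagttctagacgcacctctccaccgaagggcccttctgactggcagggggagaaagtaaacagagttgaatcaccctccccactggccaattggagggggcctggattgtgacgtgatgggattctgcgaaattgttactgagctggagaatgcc
Windows for Thrb and Slco1c1 were searched too: the first Thrb window held AGGTCA 184 to 179 bases before its start and 3 matches of GGGCGG, the other Thrb window held CACGTG and TATAAA, and the Slco1c1 window held none of the 7.

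Klf9 was at 169 CPM in the library labelled WT replicate 1 and 168 CPM in WT replicate 2, at 232 and 238 CPM in Tau, and at 246 and 242 CPM in UNC0642-treated Tau. The gap between WT and the P301S libraries was many times the spread within any group, and the groups did not overlap in any comparison. Means were 168 ± 0.803, 235 ± 4.08 and 244 ± 2.72 CPM (SD, n = 2). The log2 difference was 0.48 (SE 0.069) between Tau and WT, 1.40-fold, and 0.53 (SE 0.069) between UNC0642-treated Tau and WT, 1.45-fold. With or without UNC0642, the P301S groups differed by 0.05 (SE 0.069), with a 95% interval of -0.102 to 0.206. The library labelled WT replicate 1, which had Prnp at the level of the P301S libraries, had Klf9 at the WT level, and without it the difference between Tau and WT was 0.48. With each library left out in turn that difference ran from 0.47 to 0.50.

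Glucocorticoid-responsive genes other than Klf9 moved in the same libraries. Summed over 8 such genes, the level was 317 and 313 CPM in WT, 529 and 610 CPM in Tau, and 461 and 538 CPM in UNC0642-treated Tau. Of the 8, Fkbp5, Sgk1, Tsc22d3, Per1, Zbtb16, Ddit4 and Nfkbia rose in Tau against WT, with all 7 calls kept when any 1 library was left out. Of all genes tested, 3.72% were called higher in that comparison. Tsc22d3, the glucocorticoid-induced leucine zipper gene, rose by 1.02 (SE 0.105) on the log2 scale (edgeR, adjusted p = 0.00861). Fkbp5, a chaperone of the glucocorticoid receptor, rose by 0.68 (SE 0.120; adjusted p = 0.0817). The part of glucocorticoids or of thyroid hormone in the Klf9 values was not tested, and neither hormone was measured.

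**Figure D2:**
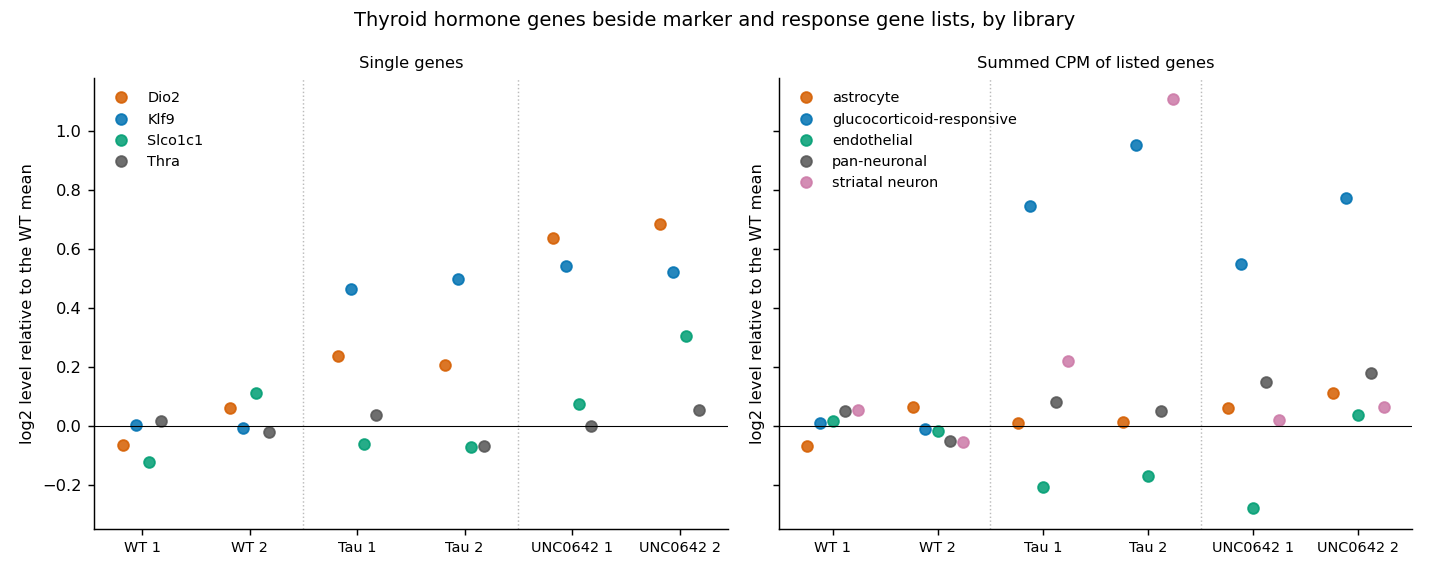
Log2 level relative to the mean of the WT libraries, library by library, for 4 of the thyroid hormone genes (left) and for the summed CPM of 5 lists of marker or response genes (right). Klf9 and the glucocorticoid-responsive sum are higher in all 4 P301S libraries than in WT, Dio2 is highest in the UNC0642-treated libraries while the astrocyte sum stays near 0, and the striatal neuron sum stands out in Tau 2.

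Counted together, 1 of the 7 genes, Klf9, was past the study's threshold (unadjusted p below 0.05 and at least 1.2-fold, edgeR) between Tau and WT, where 9.81% of all genes tested were called (3.72% higher). In UNC0642-treated Tau against Tau it was again 1 of 7, Dio2, beside 7.69% of all genes (3.73% higher). In UNC0642-treated Tau against WT it was Dio2 and Klf9, beside 9.47% (3.77% higher). None of the 7 was called lower in any comparison, beside 6.10%, 3.95% and 5.69% of all genes called lower. Groups not overlapping, with the higher level in the group named first, were found for 2 of 7 genes between Tau and WT, 3 of 7 between UNC0642-treated Tau and Tau, and 2 of 7 between UNC0642-treated Tau and WT, beside 21.9%, 20.4% and 22.1% of all genes. None of the 7 had groups not overlapping in the other direction, beside 21.4%, 20.9% and 22.3% of all genes. Since the 7 were chosen with these libraries known, nothing is read from these counts. Their median log2 difference was 0.02, 0.07 and 0.18 in the same order, beside -0.00, -0.00 and -0.01 over all genes tested.

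**Figure D3:**
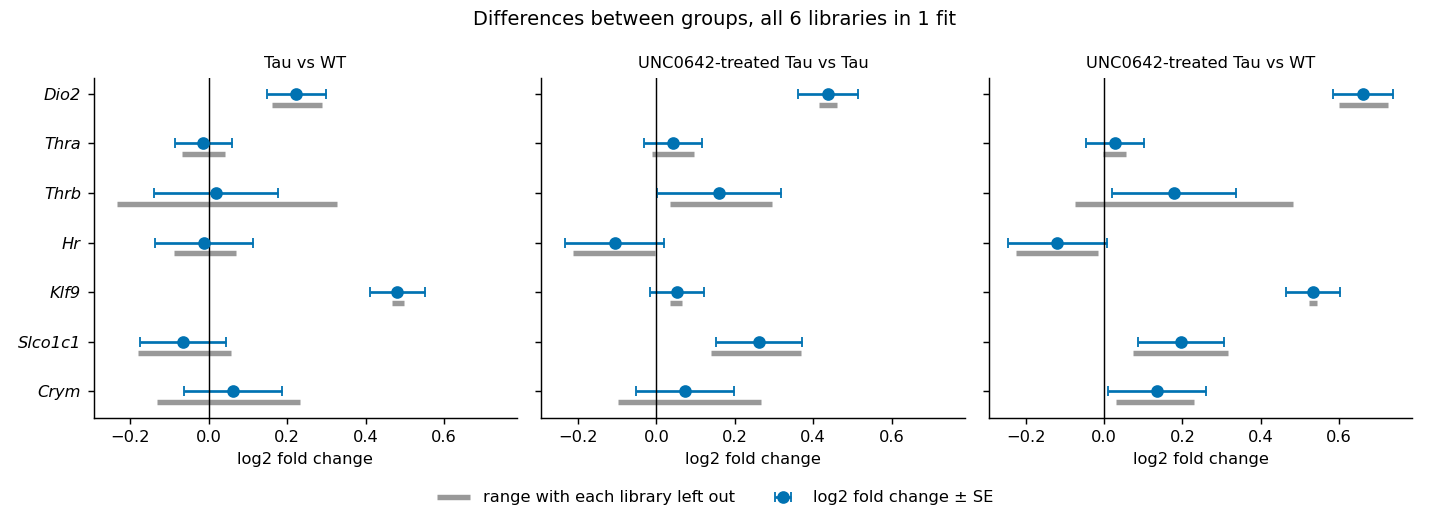
Log2 fold change of the 7 genes in the 3 comparisons (points, with SE bars, all 6 libraries in 1 edgeR fit) and its range when each library is left out in turn (grey bars). Klf9 stays between 0.47 and 0.50 for Tau against WT and Dio2 between 0.41 and 0.46 for UNC0642-treated Tau against Tau, whereas the range of Thrb crosses 0 in both comparisons with WT.

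Levels of different genes were compared only per exon length, as CPM per kilobase of exon (RPKM). Thra had by far the highest level, 93.6 RPKM on average over the 6 libraries (89.1 to 97.0), above 98.2% of 14697 protein-coding genes. Klf9 followed with 44.8 RPKM (34.9 to 51.0) and Dio2 with 28.2 RPKM (21.6 to 36.2). These ranges overlapped between libraries, although Klf9 was above Dio2 within each library. Crym was at 24.7 RPKM (21.5 to 27.6), which overlapped the range of Dio2. Thrb, at 14.5 RPKM (11.2 to 16.6), and Slco1c1, at 11.3 RPKM (10.1 to 13.6), overlapped each other and lay below Crym in all libraries. Hr was lowest, at 2.78 RPKM (2.45 to 3.004), above 37.3% of the coding genes. Per length there was 5.59 to 8.43 times as much Thra as Thrb, with the highest ratio in the library labelled WT replicate 1. These are counts per gene, so transcript forms of Thra or Thrb that encode different proteins are not told apart. The ratio of Klf9 to Hr, both T3-raised genes, was 12.1 and 12.4 in WT and 16.5 to 20.5 in the P301S libraries.

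**Figure D4:**
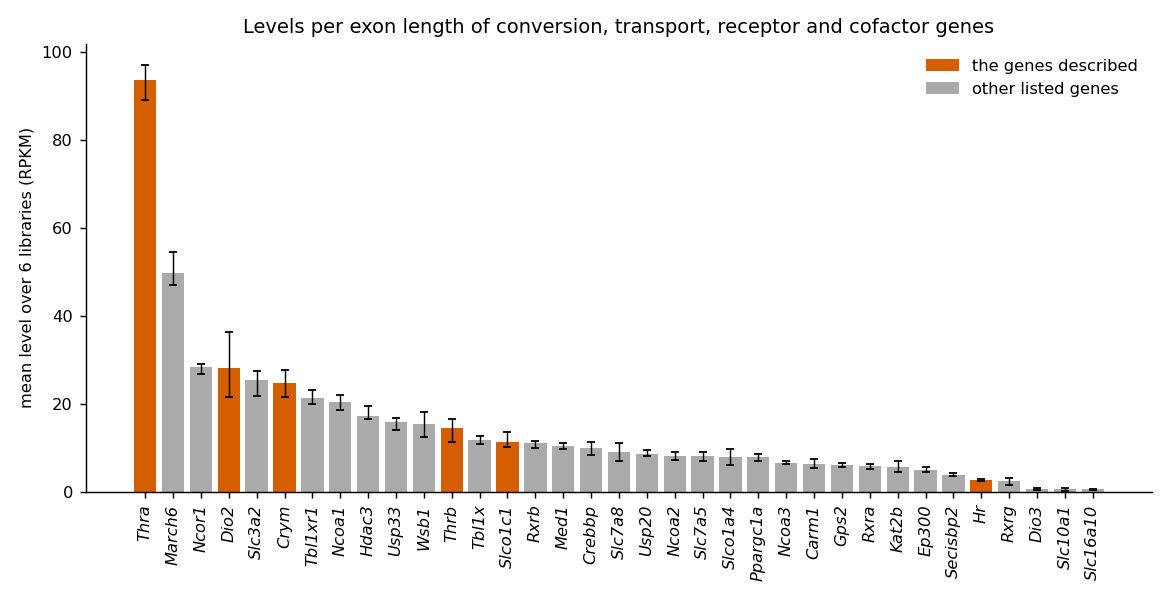
Mean RPKM over the 6 libraries (bars, from 0) of listed conversion, transport, receptor and cofactor genes, with the lowest and highest library as error bars and the genes described in orange. Thra is the highest at 93.6 RPKM, Dio2 and Crym are at 28.2 and 24.7 RPKM, and Hr is near the low end at 2.78 RPKM.

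The rest of the pathway was taken from lists written from knowledge of the pathway, 73 genes in 6 lists beside the 7 described, of which 58 could be tested. Between Tau and WT, 10 of these 58 were called (17.2%, beside 9.81% of all genes), 7 higher and 3 lower. Between UNC0642-treated Tau and Tau, 10 were called (17.2%, beside 7.69%), 1 higher and 9 lower, and between UNC0642-treated Tau and WT 15 were called (25.9%, beside 9.47%), 4 higher and 11 lower. Their median log2 differences were 0.00, -0.10 and -0.08. After adjustment over all genes, 0, 0 and 1 of the 58 had an edgeR adjusted p below 0.05, while 12, 10 and 17 had an unadjusted p below it. Over all genes tested the share with an adjusted p below 0.05 was 0.157%, 0.0196% and 0.216%. DESeq2 called 7, 8 and 14 at the study's threshold.

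In the conversion list, the other deiodinases were near 0: Dio1, the liver type 1 enzyme, had 7 counts in the 6 libraries together, and Dio3, which inactivates T3 and T4, was at 0.71 to 1.68 CPM. Wsb1, part of the ubiquitin ligase that turns over the type 2 deiodinase protein, fell by 0.33 (SE 0.107) on the log2 scale in Tau against WT (edgeR, adjusted p = 0.302), and the call was lost without WT replicate 2 or without Tau replicate 1. Usp33 and Usp20, which remove that ubiquitin, and March6, another ligase, were not called, with log2 differences of 0.14, -0.02 and 0.10 between Tau and WT. None of the 6 tested genes of this list was called between UNC0642-treated Tau and Tau. Wsb1 was 0.23 (SE 0.108) higher there, short of the threshold in this fit. The study's own list of genes lowered in Tau and restored by UNC0642 holds Wsb1.

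Among transporters, Slco1a4, an organic anion transporter of brain endothelium, was at 62.0 and 62.5 CPM in WT and 41.7 and 48.0 CPM in Tau, and fell by 0.48 (SE 0.138; edgeR, adjusted p = 0.268), a call lost without Tau replicate 1. Slc7a8, an amino acid transporter that carries T3, was at 55.6 and 44.4 CPM in Tau and 35.0 and 35.7 CPM in UNC0642-treated Tau, and fell by 0.50 (SE 0.119; adjusted p = 0.327). Slc10a1, at 0.52 to 1.78 CPM, was not called. Ttr, the T4 carrier of choroid plexus and plasma, had 30 counts in all, from the Tau libraries alone.

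Of the RXR partners, Rxrg, the form rich in striatum, was at 5.94 and 7.44 CPM in Tau and 4.26 and 3.66 CPM in UNC0642-treated Tau, and fell by 0.75 (SE 0.216; edgeR, adjusted p = 0.415). Without Tau replicate 2, the library with most striatal marker RNA, its log2 difference was -0.59. Rxra and Rxrb were not called, with differences of -0.15 and 0.04. Of 15 corepressors and coactivators none was called between Tau and WT, and their log2 differences ran from -0.14 to 0.10. Ppargc1a and Crebbp, both coactivators, had log2 differences of -0.19 and -0.19 between UNC0642-treated Tau and Tau and were not called.

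Most of the genes raised by T3 were higher in Tau than in WT, though not all, with log2 differences from -0.53 to 0.81. Most were lower in UNC0642-treated Tau than in Tau, with log2 differences from -1.10 to 0.39. Beside Klf9 and Hr, 21 of the list could be tested. Between Tau and WT, 7 were called (33.3%, beside 9.81% of all genes), all higher, and the median was 0.24: the neurofilament genes Nefh (0.29, SE 0.0973), Nefm (0.42, SE 0.0981) and Nefl (0.29, SE 0.0841), the neurotrophin gene Bdnf (0.52, SE 0.166), the lipogenic genes Thrsp (0.79, SE 0.267) and Me1 (0.29, SE 0.114), and the myelin gene Mag (0.81, SE 0.364), with edgeR adjusted p from 0.193 for Nefm to 0.402 for Mag. Nefh and Nefm kept their calls when any 1 library was left out. Mag was at 157 CPM in Tau replicate 2 against 42.4 to 83.7 CPM elsewhere, its difference without that library was 0.05, and its call was also lost without WT replicate 2 or either UNC0642-treated library. Nefl and Bdnf lost their calls without the library labelled WT replicate 1, Thrsp without that library or without Tau replicate 2, and Me1 without WT replicate 2 or either Tau library.

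With UNC0642 against vehicle in Tau mice, 6 of the 21 were called (28.6%, beside 7.69% of all genes), 1 higher and 5 lower, with a median of -0.22. Bdnf rose by 0.39 (SE 0.165; edgeR, adjusted p = 0.547) on the log2 scale, from 51.9 and 53.8 CPM to 70.0 and 68.1 CPM, but the call was lost when any of these 4 libraries was left out. Dbp, a clock output factor, was at 45.9 and 40.6 CPM in Tau and 17.5 and 22.9 CPM in UNC0642-treated Tau, and fell by 1.10 (SE 0.141; adjusted p = 0.0549). Rasd2, a small GTPase of striatum, fell by 0.48 (SE 0.110; adjusted p = 0.327) and Stac2 by 0.37 (SE 0.0948; adjusted p = 0.387), and Dbp, Rasd2 and Stac2 kept their calls when any 1 library was left out. Thrsp and Mag also fell, by 0.64 and 0.90, and neither was called without Tau replicate 2 or without either UNC0642-treated library. Klf9 and Hr, with 0.05 and -0.11, were not called in this comparison.

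The hypothalamic and thyroid genes are those of the releasing hormone, pituitary hormone and gland, and 7 of the 14 listed had enough counts to test. Pax8, Foxe1, Nkx2-1 and Cga were at 0 counts in all 6 libraries. Other genes of the list were not: Slc26a4 was at 4.24 to 8.48 CPM, Slc5a5 at 4.26 to 5.20 CPM, Trhr at 3.20 to 5.33 CPM and Tshb at 0.27 to 1.15 CPM, with groups that were not called different. Trh, the hypothalamic releasing hormone gene, was at 16.8 CPM in the library labelled WT replicate 1 and at 0.59 to 1.32 CPM in the other 5, so its call as lower in Tau (-2.76, SE 1.01; edgeR, adjusted p = 0.336) came from that 1 library and its difference was 1.11 without it. Tshr, with 61 counts in all, fell by 2.10 (SE 0.914; adjusted p = 0.549) between UNC0642-treated Tau and Tau, and that call was lost without any of 5 libraries.

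**Figure D5:**
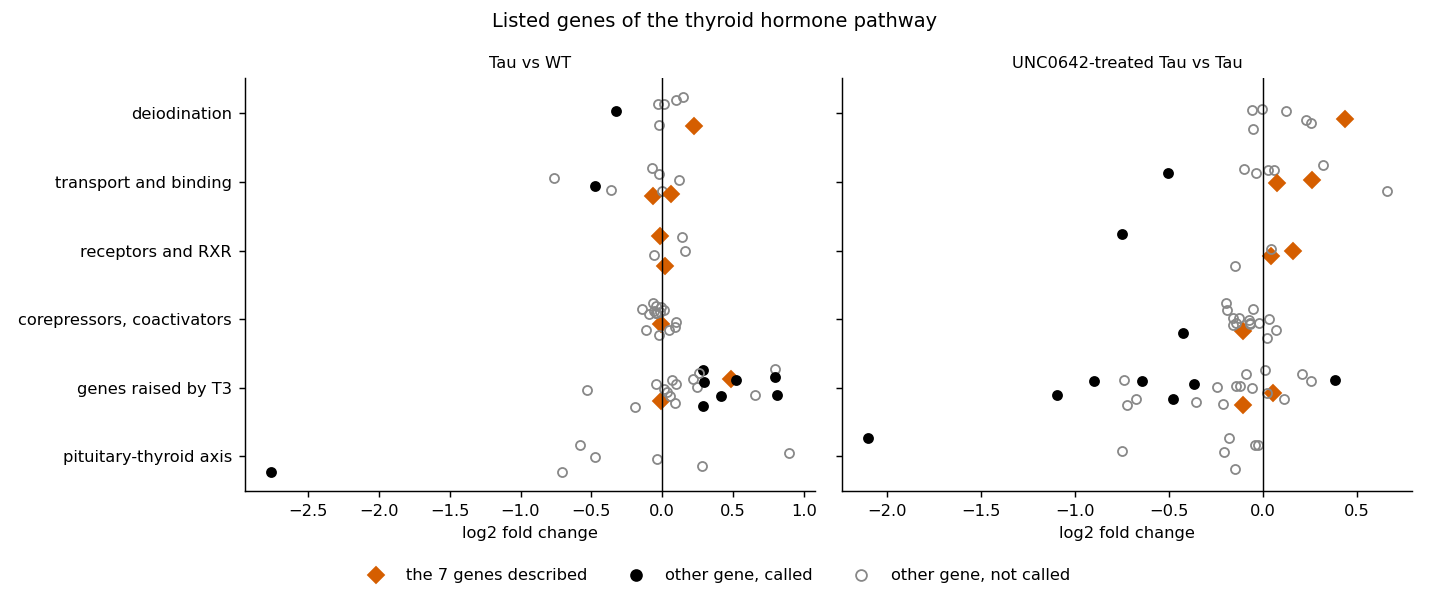
Log2 fold change of the tested genes of each pathway list, Tau against WT (left) and UNC0642-treated Tau against Tau (right); orange diamonds, the 7 genes described; black, other genes past the study's threshold; open, other genes not past it. In the row of T3-raised genes, 7 of 21 are black and higher on the left, and 5 of the 6 black on the right are lower.

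Finally, the protein-coding genes with the most similar profile over the 6 libraries were listed for each gene, among 13353 with a mean of at least 1 CPM. Pearson's r of log2 CPM is given as a description: the 6 points share 3 groups, and with so many candidates high values are found for any profile. For Dio2 these were Fundc1 (r = 0.997), Homer1 (0.995) and Fosl2 (0.992), and Homer1 ran from 360.4 to 868 CPM. For Klf9 they were Galnt7 (0.999), Kcnj12 (0.996) and Nostrin (0.996). For Slco1c1 they were Gbp2 (0.986), Srsf12 (0.975) and Zbtb3 (0.968), and for Crym Mrps26 (0.996), Arhgap19 (0.994) and Cog5 (0.993). For Thra they were Msc (0.984), Cog5 (0.975) and Leng9 (0.968), so Cog5 stood near both Crym and Thra. For Thrb they were Btbd3 (0.989), Habp4 (0.986) and Dcun1d3 (0.985), and for Hr Tbc1d20 (0.994), Ap4b1 (0.990) and Naprt (0.988). None of the 7 was among the 3 most similar of another, and Thra and Crym came closest to each other among them (r = 0.950, 6 libraries).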

How the data were processed

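The deposited values are counts of reads per gene, 1 file per library. Per the labels and the study's methods, the authors built TruSeq stranded total RNA libraries with Ribo-Zero, sequenced them on a HiSeq 2500, trimmed reads with Cutadapt, aligned them to mouse RefSeq mRNAs with TopHat2 at default settings and counted with featureCounts; the submitters' processing notes name mm10, SAMtools and edgeR. Tool versions and the strand setting are not given in the sources used here. Counts were joined over 54429 gene names. In 2 files 26 names had been turned into dates and were joined by position, none of them a gene described here.

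From the counts, edgeR 4.0.16 in R 4.3.3 fitted 1 mean per group over all 6 libraries (filterByExpr with a minimum count of 10 and a total of 15, TMM factors 0.966 to 1.04, quasi-likelihood F test, biological coefficient of variation 12.3%, 3 residual degrees of freedom). A gene was called at unadjusted p below 0.05 and at least 1.2-fold, the study's threshold, and adjusted p are Benjamini-Hochberg values over 20409 genes. With 2 libraries per group, p-values set a difference against the spread between these libraries, which the fit moderated across genes. The 95% intervals of the genes described used 10.2 total degrees of freedom, more than the 3 residual ones. They therefore do not rest on the spread of that gene in these libraries alone. The method was tested on simulated counts. RPKM used GENCODE M21 exon lengths, matched by symbol (53669 symbols had 1 gene). Promoter windows are from RefSeq, of which Dio2, Thrb, Klf9 and Slco1c1 had an entry and Thra, Hr and Crym did not. DESeq2 1.42.0 and limma-voom 3.58.1 were alternatives.

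The genes, lists and tests were chosen with earlier results of these data known. Named beside the 7 were, in each pathway list, the genes called in either of the first 2 comparisons and otherwise those with the largest differences, up to 3, the 3 genes most like each member, and the genes used to check libraries; the antisense neighbour Gm26512, genes at or near 0 and others set beside a result were added after their values were seen. Values of some listed genes are not reported here. Same-numbered libraries come from different mice, and the numbers did not pair them (correlations of deviations from the group means -0.034, -0.021 and -0.0033).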

Additional observations from a re-analysis of the deposited data

How the results depend on the processing

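Of 315 alternative values for the 21 log2 differences of the 7 genes, 291 moved by less than 1 SD between replicates (log2 CPM, pooled over the 3 groups) and 24 by more. Klf9 (Tau and UNC0642-treated Tau against WT) and Dio2 (UNC0642-treated Tau against Tau and against WT) were past the threshold under all 15 alternatives, Dio2 between Tau and WT under 1 of 15 (without WT replicate 2) and Slco1c1 between UNC0642-treated Tau and Tau under 8 of 15. With a term for Xist, Dio2 between UNC0642-treated Tau and Tau was 0.56 and Slco1c1 0.49. That term rests mostly on the gap between the WT libraries, so these values cannot separate drug from sex pattern. Across left-out libraries the differences of Thra, Thrb, Hr, Slco1c1 and Crym between Tau and WT took both signs.

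Genes called between Tau and WT numbered 2003, and 1322 by DESeq2, 32 at an adjusted p below 0.05 and 1130 at 1.5-fold, and 1854 to 2212 with each library left out. Between UNC0642-treated Tau and Tau they numbered 1569, and 4 and 855 under the last settings, and between UNC0642-treated Tau and WT 1932, and 44 and 784. Other pathway genes called numbered 10 between Tau and WT (0 adjusted, 3 at 1.5-fold, 6 to 13 with a library left out, lowest without Tau replicate 2), 10 between UNC0642-treated Tau and Tau (0 adjusted, 5 at 1.5-fold, 7 to 12) and 15 between UNC0642-treated Tau and WT (1 adjusted, 6 at 1.5-fold, 8 to 16, lowest without UNC0642-treated Tau replicate 2). Adjusted p and 1.5-fold are stricter thresholds. With a library left out, counts went both below and above those of the main fit. The causes of these changes, and of that with DESeq2, were not tested.

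With the replicate number as a block, which does not pair the mice, 1792, 1404 and 1755 genes were called, and the differences stayed at 0.48 for Klf9 (Tau against WT) and 0.44 for Dio2 (UNC0642-treated Tau against Tau). The SE of a difference over 2 libraries per group was 0.069 for Klf9, 0.076 for Dio2, 0.125 for Hr and 0.159 for Thrb between Tau and WT. A difference about as large as its SE was not resolved either. The 95% interval of Thrb in that comparison ran from -0.333 to 0.371.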

Other observations

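Other gene lists gave values that belong to none of the thyroid hormone genes. Of 13 clock genes, 4 were called higher in Tau than in WT (Per1, Per2, Nr1d2 and Ciart), and between UNC0642-treated Tau and Tau 7 were called lower (Dbp, Nr1d1, Nr1d2, Per1, Per2, Ciart and Bhlhe41) and 1 higher (Arntl), by edgeR at the study's threshold. Of all genes tested, 3.72% were called higher and 6.10% lower in Tau than in WT. Between UNC0642-treated Tau and Tau these shares were 3.73% and 3.95%. The same shares stand beside the marker lists below. Between UNC0642-treated Tau and Tau, Nr1d1 fell by 0.80 and Arntl, its repressed target, rose by 0.54 on the log2 scale (SE 0.135 and 0.106, adjusted p = 0.144 and 0.233). Of the glucocorticoid-responsive genes, Cdkn1a rose by 0.64 and Per1 fell by 0.47 in that comparison; the Cdkn1a call was lost without Tau replicate 2 or either UNC0642-treated library, and Per1 was at -0.22 and not called without Tau replicate 1. The Nr1d2 call there was lost without UNC0642-treated Tau replicate 1.

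Among cell type markers, 5 of 12 endothelial genes fell in Tau against WT, with Cldn5, a tight junction gene, at 26.1 and 18.5 CPM in WT, 10.5 and 10.3 CPM in Tau, and 13.9 and 16.0 CPM in UNC0642-treated Tau (log2 difference -1.10 between Tau and WT, SE 0.172, edgeR, adjusted p = 0.0467). Cldn5 kept its call when any 1 library was left out, and the other 4 calls (Flt1, Tek, Abcb1a and Slc22a8) were lost without Tau replicate 2. Slc2a1, the endothelial glucose transporter, rose by 0.44 (SE 0.125, adjusted p = 0.259). Of 9 tested meningeal fibroblast genes 3 fell in Tau against WT (Col3a1, Slc6a13 and Islr), and all 3 calls were lost without Tau replicate 2. Of 12 oligodendrocyte genes 5, and of 10 striatal neuron genes 9, were called higher in Tau than in WT, and 3 and 9 were called lower in UNC0642-treated Tau than in Tau, and Tau replicate 2 was far above the other libraries in both lists. Without it, 0 of the 5 oligodendrocyte and 1 of the 9 striatal calls in Tau against WT were kept (Tac1, 0.53), and 0 of 3 and 1 of 9 in UNC0642-treated Tau against Tau (Penk, -0.52). Mobp, a myelin gene, went from 1.07 to 0.01 and Adora2a, a striatal receptor gene, from 1.54 to 0.08 in Tau against WT. Of 7 deep-layer, 5 upper-layer and 7 pan-neuronal genes 1, 1 and 0 were called between Tau and WT, and the deep-layer call (Bcl11b) was lost without Tau replicate 1 and the upper-layer call (Lamp5) without any of 4 libraries, Tau replicate 1 and the library labelled WT replicate 1 among them. The library labelled WT replicate 1, which had the high Trh, also had Aqp1, a choroid plexus gene, at 9.93 CPM against 0.26 to 0.71 CPM elsewhere. Aqp1 was called lower in Tau, and that call was lost without this library. No other gene of the choroid plexus list was highest there: Ttr was at 0, and Kl at 1.73 CPM against 1.66 to 3.26 CPM elsewhere. Of 5 sex-linked genes 4 were called lower in Tau than in WT, and the library labelled WT replicate 1 was the WT library with reads of the Y-linked genes.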
